A study of Canis lupus familiaris with 25 samples.

Results

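Splicing factor genes were examined in canine mammary carcinoma as 7 families defined by their symbols: the SR proteins (SRSF), the snRNP proteins (SNRP), the heterogeneous nuclear ribonucleoproteins (HNRNP), the SF3A and SF3B subunits (SF3), the pre-mRNA processing factors (PRPF), the LSm proteins (LSM) and the U2 auxiliary factors (U2AF). All probe sets that the platform annotation assigns to exactly 1 gene with such a symbol were taken. They numbered 179 of 42924 probe sets and covered 73 of 15115 named genes. The arrays came from dogs aged 9 to 16 years and of various breeds. They covered 13 simple mammary carcinomas that had already spread to a lymph node and 12 specimens of non-neoplastic mammary gland. The labels name no drug treatment, and the non-neoplastic glands came from dogs of the same study rather than from healthy animals. In 11 dogs both tissues were measured, and these pairs carry the comparison, with the dog as the replicate. Values and ranges in glands and tumours are those of the 22 paired arrays unless an unpaired one is named. Dogs 1 and 9 gave a tumour alone and dog 8 a gland alone.

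The spliceosome removes introns from pre-mRNA. It is built from small nuclear ribonucleoproteins (snRNPs), each a short RNA with a ring of Sm or LSm proteins and further proteins of its own. U1 recognises the start of an intron, the U2AF proteins and U2 with its SF3a and SF3b parts recognise the region before its end, and the tri-snRNP of U4, U6 and U5 then joins to form the catalytic centre. SR proteins and hnRNPs bind the transcript itself and steer which exons are kept, SR proteins mostly as activators and hnRNPs often as repressors.

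Every tested splicing gene lay above log2 4, a level a little above the array medians, on all 22 paired arrays. Array medians were alike in the paired tissues, from 3.57 to 3.76 in tumours and from 3.55 to 3.73 in glands. The epithelial markers EPCAM, KRT8 and KRT18 were above log2 4 on every paired array, with KRT18 lowest at 6.34 in a tumour. Of the other cell type markers, 7 of 8 tested basal and myoepithelial genes were lower in tumour and 1 was higher, with list means of 6.92 to 10.87 in tumours and 10.82 to 12.06 in glands. Of 10 endothelial genes 9 were lower (5.27 to 7.60 against 7.00 to 9.15), and of 8 adipocyte genes 6 were lower (6.56 to 10.22 against 8.75 to 11.83). Of 6 T cell and 11 macrophage genes 0 were called by limma, with 1 T cell gene higher at an unadjusted p under 0.05, and 5 of 10 luminal genes were lower (6.83 to 8.85 in tumours against 8.63 to 10.65 in glands). Of 14 skeletal muscle genes 12 were lower, and their list mean ran from 3.14 to 4.44 in the tumours. It ran from 4.02 to 4.26 in the glands of dogs 2 to 6 and from 9.00 to 11.00 in those of dogs 7 and 10 to 14. All 20 tested mitosis genes were higher in tumour, with a mean difference of 3.03 ± 1.63 on the log2 scale. In tissue extracts, fewer cells of a type and less RNA per cell cannot be told apart. The part of these shifts in the results was not tested. Values within the dogs without muscle signal are given after the families.

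Of 70 tested splicing genes, 23 were higher in tumour than in the gland of the same dog and 2 were lower, by limma's paired test with Benjamini-Hochberg adjustment at 0.05. That is 32.9% higher and 2.86% lower, whereas over all 8885 genes tested 18.4% were higher and 11.1% lower, 29.6% in all. The remaining 45 did not pass. After a second quantile normalization of the deposited values 19 rose and 5 fell, beside 15.2% and 13.1% of all genes. The median difference of the splicing genes was 0.24 on the log2 scale, beside 0.10 for all genes, and 50 of 70 (71.4%) lay above 0, beside 57.5% of all genes. In 51 of the 70 genes (72.9%) the mean difference was below 0.5 in either direction, beside 61.6% of all genes. At least 2-fold rises were called for 7 genes, which is 30.4% of the called rises, beside 33.4% of those over all genes. Of the 23 rises, 12 were seen in all 11 dogs, which is 17.1% of the tested splicing genes, beside 5.67% of all genes. Among the paired arrays, HNRNPAB alone had groups that did not overlap (1.43% of the splicing genes, beside 0.428% of all genes). At the level of probe sets, 53 of 164 tested were higher, or 32.3%, and 4 were lower, against 17.3% and 11.1% of all probe sets.

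**Figure D1:**
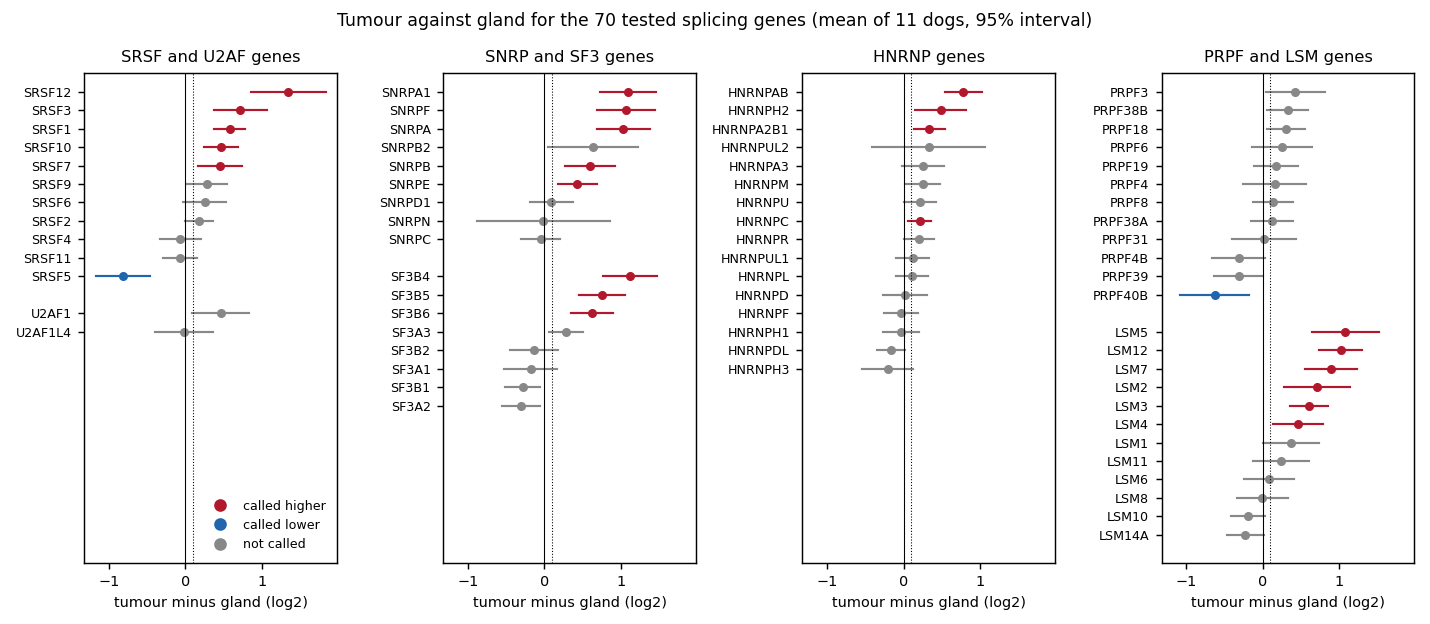
Mean difference between tumour and gland on the log2 scale for each of the 70 tested splicing genes (points, 11 dogs) with its 95% interval from limma (lines), by family; the solid line marks 0 and the dotted line the median of all genes, 0.10. Rises were called for 5 of 11 SRSF, 5 of 9 SNRP, 4 of 16 HNRNP, 3 of 8 SF3, 6 of 12 LSM and 0 of 12 PRPF genes, beside 18.4% of all genes.

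The snRNP proteins themselves came first among the families of more than 2 genes by median difference, at 0.59. Of 9 genes 5 were higher (55.6%, beside 18.4% of all genes) and 0 lower by limma. At an unadjusted p under 0.05, 0 of the SNRP, LSM, HNRNP and U2AF genes were lower. SNRPA, a U1 protein that binds the RNA of that snRNP, ran from 7.24 to 8.40 in the glands (median 7.83) and from 7.64 to 9.51 in the tumours (median 8.92). It was higher in all 11 tumours than in their glands, although the groups overlapped, and the difference was 1.03 ± 0.50 (SD over 11 dogs, 2.04-fold, adjusted p = 0.000916). SNRPA1, a core protein of the U2 snRNP, ran from 7.02 to 8.36 in the glands (median 7.74) and from 8.08 to 9.47 in the tumours (median 8.57). Among the paired glands only that of dog 14, at 8.36, reached the range of the tumours, and the rise of 1.09 ± 0.54 (2.12-fold, adjusted p = 0.000901) was again seen in 11 of 11 dogs. Its partner in U2, SNRPB2, differed by 0.64 ± 0.96 (adjusted p = 0.0943), with 9 of 11 dogs higher and a wide spread. SNRPB2 passed without dog 3 (0.81, adjusted p = 0.0342) or dog 14 (0.78, adjusted p = 0.0418), the dogs with its high gland values of 8.83 and 8.69.

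The Sm ring is the core shared by U1, U2, U4 and U5. Of the 5 Sm genes tested 3 rose. SNRPF showed the largest rise of them, from a gland median of 9.22 (9.09 to 9.89) to a tumour median of 10.24 (9.48 to 11.49), which is 1.06 ± 0.59 (adjusted p = 0.00128) and higher in 11 of 11 dogs. SNRPB went from a gland median of 12.53 (12.18 to 12.87) to a tumour median of 12.89 (12.43 to 14.04). This rise of 0.59 ± 0.53 (adjusted p = 0.0121) was seen in 10 of 11 dogs. SNRPE rose by 0.43 ± 0.40 (adjusted p = 0.0182), also in 10 of 11. SNRPD1 did not pass, at 0.09 ± 0.43 (adjusted p = 0.630). SNRPC, the third protein specific to U1, gave -0.05 ± 0.38 (adjusted p = 0.795) on its brightest probe set, but its second probe set was higher by 0.52 ± 0.38 (adjusted p = 0.00766).

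SNRPN, an Sm gene closely related to SNRPB that is imprinted in humans and mice, stood apart by its spread. In the 11 glands its values lay between 10.13 and 11.09. The tumours of dogs 6 and 12 had 8.65 and 7.29, below every gland, whereas the other 9 paired tumours lay between 10.89 and 12.00. A second probe set for SNRPN gave the same picture, with 7.69 and 6.50 in these 2 tumours and 10.19 to 11.57 in the other 9, beside 9.44 to 10.64 in the glands. The mean difference over 11 dogs was -0.01 ± 1.49 (adjusted p = 0.985), so the test made no call. These 2 tumours were picked out after their values were seen, and no test was made of them. RNA of such close relatives can bind the same probes, and this was not tested for SNRPB and SNRPN.

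The SF3 genes belong to the U2 snRNP, as its SF3a and SF3b parts. Of 8 tested 3 rose (37.5%, beside 18.4% of all genes) and 0 fell. SF3b sits on the branch site of the intron, and 3 of its 5 tested genes rose. SF3B4, which contacts the RNA before the branch site, ran from 5.65 to 8.23 in the glands (median 6.75) and from 6.48 to 9.44 in the tumours (median 8.15). All 11 dogs rose, by 1.11 ± 0.50 on average (2.16-fold, adjusted p = 0.000652). SF3B5, a small subunit, went from a gland median of 10.06 (9.66 to 10.42) to a tumour median of 10.71 (10.27 to 11.29), a rise of 0.75 ± 0.44 (adjusted p = 0.00248) in all 11 dogs. SF3B6, which contacts the branch site, rose by 0.63 ± 0.41 (adjusted p = 0.00381) in 10 of 11 dogs. The large scaffold SF3B1 gave -0.28 ± 0.33 (adjusted p = 0.0632), lower in 10 of 11 dogs without passing, and SF3B2 gave -0.14 ± 0.47 (adjusted p = 0.501). Of the 3 SF3a genes 0 were called by limma, with 1 higher and 1 lower at an unadjusted p under 0.05: SF3A3 gave 0.28 ± 0.30 (adjusted p = 0.0515) and SF3A2 -0.30 ± 0.30 (adjusted p = 0.0618). SF3A2 passed as lower without dog 3 (-0.35, adjusted p = 0.0427). SF3B3 was not tested, since it lay below log2 4 in 8 of 11 tumours and 10 of 11 glands.

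Among the LSM genes 6 of 12 rose (50%, beside 18.4% of all genes) and 0 fell, with a median difference of 0.42. The LSm2 to LSm8 proteins form the ring on U6 RNA, and 5 of these 7 genes rose. LSM5 had a gland median of 8.72 (8.30 to 9.56) and a tumour median of 9.75 (8.83 to 11.11), and rose by 1.08 ± 0.69 (2.11-fold, adjusted p = 0.00248) in 10 of 11 dogs. LSM7 moved from 10.30 (9.89 to 10.69) to 11.33 (10.54 to 12.01), a rise of 0.89 ± 0.54 (adjusted p = 0.00201) in all 11 dogs. LSM2 rose by 0.71 ± 0.69 (adjusted p = 0.0197) in 10 dogs and LSM3 by 0.60 ± 0.36 (adjusted p = 0.00291) in all 11. LSM4 rose by 0.46 ± 0.48 (adjusted p = 0.0383) in 9 dogs. This last call was lost without any 1 of dogs 2, 3, 4, 6, 7, 10, 11 or 13 (differences of 0.36 to 0.48, adjusted p from 0.0522 to 0.0800). It was also lost under the second quantile normalization (0.36, adjusted p = 0.0798) and with no filter on low values (0.46, adjusted p = 0.0638). The other ring members LSM6 and LSM8 gave 0.08 ± 0.52 (adjusted p = 0.711) and 0.00 ± 0.52 (adjusted p = 0.992).

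Outside that ring, LSM12, a protein with an LSm domain, was the 1 LSM gene of 5 that rose. It ran from 7.22 to 7.93 in the glands (median 7.46) and from 7.73 to 9.15 in the tumours (median 8.61), where only the lowest paired tumour fell within the range of the paired glands. The unpaired gland of dog 8 was higher than these glands, at 8.28. The rise of 1.02 ± 0.35 (2.03-fold) was present in all 11 dogs and had the smallest adjusted p of all 70 genes, 0.000329. LSM1, which replaces LSM8 in the ring of cytoplasmic mRNA decay, differed by 0.37 ± 0.57 (adjusted p = 0.117) and passed without dog 4 (0.49, adjusted p = 0.0350) or dog 12 (0.48, adjusted p = 0.0416). LSM10 and LSM11, of the U7 snRNP that processes histone mRNA, gave -0.19 ± 0.32 (adjusted p = 0.190) and 0.24 ± 0.53 (adjusted p = 0.305). LSM14A, a protein of cytoplasmic mRNA granules, gave -0.22 ± 0.32 (adjusted p = 0.146) on its brightest probe set. Its other tested probe sets lay above 0, from 0.15 to 0.46, and that at 0.46 ± 0.40 was called higher (adjusted p = 0.0247). LSM14B was not tested.

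**Figure D2:**
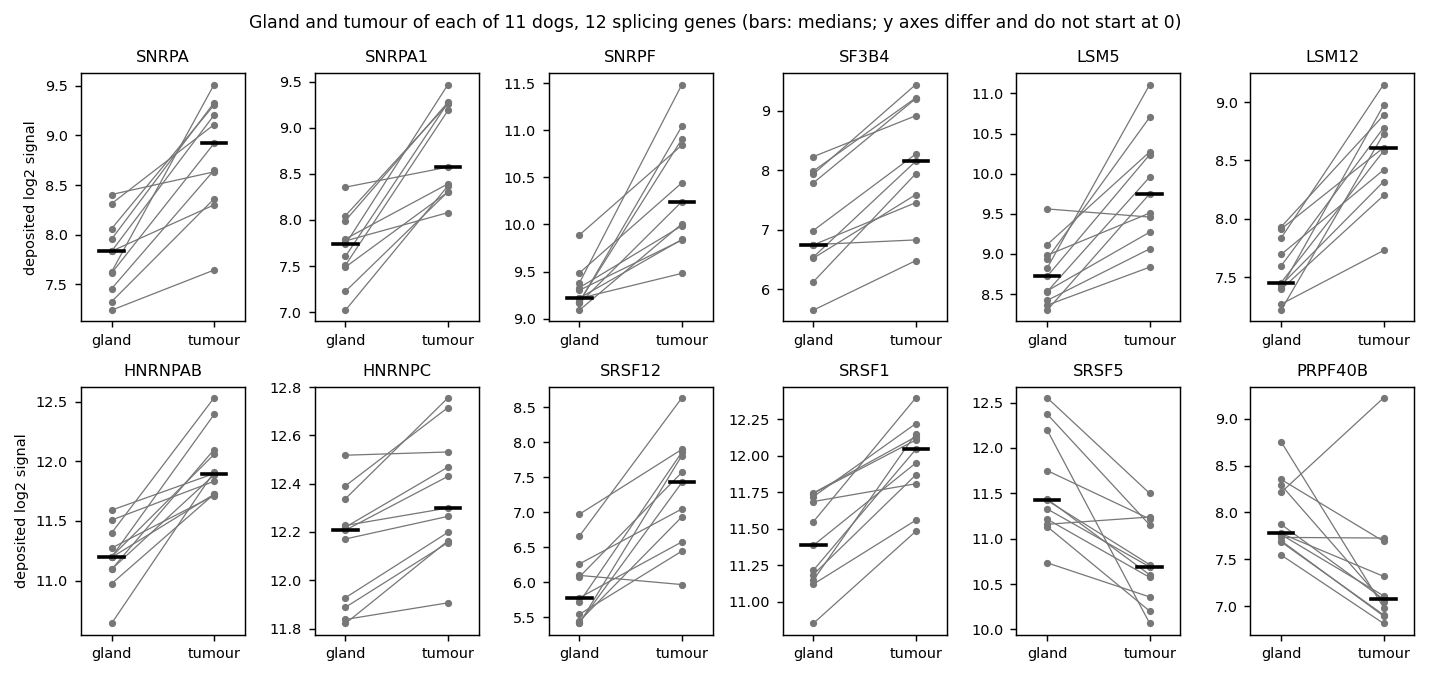
Deposited log2 signal of 12 splicing genes in the gland and tumour of each of the 11 paired dogs (points joined by a line per dog; black bars are medians). SNRPA, SNRPA1, SNRPF, SF3B4, LSM12, HNRNPAB, HNRNPC and SRSF1 rose in all 11 dogs, LSM5 and SRSF12 in 10, and SRSF5 and PRPF40B were lower in 10 of 11.

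The SR proteins went both ways, with 5 of 11 genes higher (45.5%) and 1 lower, beside 18.4% and 11.1% of all genes. SRSF12, an SR protein closely related to SRSF10, showed the largest rise of all 70 genes by their brightest probe sets. Its dimmer probe set was also higher, by 0.68 ± 0.62 (adjusted p = 0.0212) in 8 of 11 dogs. On the brightest probe set SRSF12 ran from 5.41 to 6.97 in the glands (median 5.78) and from 5.97 to 8.64 in the tumours (median 7.43). The difference was 1.35 ± 0.76 (2.54-fold, adjusted p = 0.00138), with 10 of 11 dogs higher. SRSF1, the founding member of the family, rose by 0.58 ± 0.25 (adjusted p = 0.00113) in all 11 dogs, from a gland median of 11.39 (10.85 to 11.74) to a tumour median of 12.04 (11.48 to 12.40). SRSF3 rose by 0.72 ± 0.55 (adjusted p = 0.00610) in 10 dogs, from a gland median of 11.21 (10.10 to 11.77) to a tumour median of 11.66 (11.14 to 12.34). SRSF10 rose by 0.46 ± 0.27 (adjusted p = 0.00626) in all 11 and SRSF7 by 0.46 ± 0.45 (adjusted p = 0.0232) in 9. SRSF7 lost its call without dog 4, where its difference was 0.41 and its adjusted p lay just above the threshold, and under the second quantile normalization (0.37, adjusted p = 0.0541).

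SRSF5 was the 1 SR gene that fell. It ran from 10.73 to 12.55 in the glands (median 11.42) and from 10.07 to 11.50 in the tumours (median 10.69). It was lower in 10 of 11 tumours, with a difference of -0.82 ± 0.56 (1.76-fold, adjusted p = 0.00361). Of its 4 tested probe sets 3 were lower, at -0.82, -0.61 and -0.47, and the dimmest, at 0.12 ± 0.62, did not pass (adjusted p = 0.667) and lay below log2 4 in 7 tumours and 9 glands. Of the other SR genes, SRSF9 (0.28 ± 0.39, adjusted p = 0.0929), SRSF6 (0.25 ± 0.42) and SRSF2 (0.18 ± 0.23) did not pass, nor did SRSF4 (-0.06 ± 0.39) and SRSF11 (-0.07 ± 0.29).

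Of the hnRNP genes 4 of 16 rose, which is 25% beside 18.4% of all genes, and 0 fell. HNRNPAB, an RNA-binding protein that also acts on transcription, ran from 10.64 to 11.59 in the glands (median 11.20) and from 11.71 to 12.53 in the tumours (median 11.90). Every paired tumour exceeded every paired gland, by 0.78 ± 0.35 on average within dogs (1.72-fold, adjusted p = 0.000608), and its second probe set rose by 0.95 ± 0.37 (adjusted p = 0.000387). The unpaired tumour of dog 1, at 11.46, lay below the highest gland. The other 3 rises were smaller. HNRNPH2 rose by 0.49 ± 0.50 (adjusted p = 0.0331) in 10 of 11 dogs. HNRNPC, a core hnRNP that binds uridine tracts, rose in all 11 dogs by 0.21 ± 0.13 (1.16-fold, adjusted p = 0.0377). HNRNPH2 lost its call without dog 3, 6, 10, 11 or 12 (0.39 to 0.46, adjusted p from 0.0616 to 0.0663) and HNRNPC without dog 2, 3, 4, 6, 7, 11, 12 or 13 (0.19 to 0.23, adjusted p from 0.0505 to 0.0779). Under the second quantile normalization HNRNPH2 (0.40, adjusted p = 0.0623) and HNRNPC (0.13, adjusted p = 0.205) did not pass either, and HNRNPH2 did not without a filter (adjusted p = 0.0563). The family count fell to 2 without dog 3, 6, 11 or 12. Without the dog as a block 1 of 16 rose, and HNRNPH2 (adjusted p = 0.0520), HNRNPA2B1 (0.0806) and HNRNPC (0.170) lost their calls.

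HNRNPA2B1, a repressor of many exons, depended on the probe set. The brightest was higher by 0.34 ± 0.30 (adjusted p = 0.0187, 10 of 11 dogs) and another by 0.53 ± 0.57 (adjusted p = 0.0302). The other 3 lay lower in tumour, at -0.32 ± 0.51, -0.55 ± 1.06 and -0.53 ± 1.15, without passing (adjusted p = 0.133, 0.168 and 0.229). The mean of all 5 probe sets gave -0.11 (adjusted p = 0.635), so its place among the 4 rises depends on which probe sets stand for the gene. HNRNPUL2 gave 0.33 ± 1.26 (adjusted p = 0.495), with a low tumour value of 7.05 in dog 12 beside 8.78 to 10.43 in the other paired tumours. By the brightest probe sets, the 2 largest negative values of the family, HNRNPH3 at -0.21 ± 0.53 (adjusted p = 0.330) and HNRNPDL at -0.16 ± 0.24 (adjusted p = 0.164), did not pass. HNRNPH3 also depended on the probe set. Of its 4 tested probe sets 2 were called higher, at 0.90 ± 0.88 (adjusted p = 0.0205) and 0.55 ± 0.51 (adjusted p = 0.0195). Another gave -0.16 ± 0.51 (adjusted p = 0.454). HNRNPA0 was not tested, because it lay below log2 4 in all 11 tumours.

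Of the 12 PRPF genes, several of which encode the protein scaffold of the tri-snRNP, 0 rose and 1 fell by limma. Over all genes 18.4% rose and 11.1% fell. A difference in count from the families above was not tested, and 9 of 12 lay above 0. The 5 tri-snRNP genes did not pass, from PRPF3 at 0.43 ± 0.59 (adjusted p = 0.0848) through PRPF6 (0.25 ± 0.60), PRPF4 (0.16 ± 0.63) and PRPF8 (0.13 ± 0.39) to PRPF31 (0.02 ± 0.65). The 95% interval of the PRPF8 difference, ran from -0.13 to 0.39. At an unadjusted p under 0.05, PRPF3, PRPF18 (0.31 ± 0.28, adjusted p = 0.0582) and PRPF38B (0.33 ± 0.34, adjusted p = 0.0619) would be higher. PRPF3 passed without dog 13 (0.53, adjusted p = 0.0372) and with all 25 arrays (0.46, adjusted p = 0.0328), and its dimmer probe set rose by 1.36 ± 1.02 (adjusted p = 0.00486). That probe set had a low gland mean of 4.64, with 2 glands below log2 4. PRPF40B, which is related to a yeast protein of the U1 snRNP, ran from 7.55 to 8.75 in the glands (median 7.78) and from 6.82 to 9.22 in the tumours (median 7.08). It was lower in 10 of 11 dogs, by 0.63 on average (difference -0.63 ± 0.70, adjusted p = 0.0388), while the tumour of dog 12, at 9.22, exceeded every gland. This call was lost without dog 2, 3, 4, 5, 6, 7, 10, 11 or 13 (-0.64 to -0.51, adjusted p from 0.0559 to 0.0790) without the dog as a block (adjusted p = 0.0578) and with no filter on low values (adjusted p = 0.0731).

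U2AF1, the subunit that reads the AG at the end of the intron, gave 0.46 ± 0.61 (adjusted p = 0.0598, 8 of 11 dogs higher). It passed without dog 5 (0.52, adjusted p = 0.0493), 11 (0.56, adjusted p = 0.0271) or 13 (0.55, adjusted p = 0.0282) and with all 25 arrays (0.44, adjusted p = 0.0265). Its relative U2AF1L4 gave -0.02 ± 0.56 (adjusted p = 0.939). The call counts by family can be read against all genes in the plot of calls per family and list.

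**Figure D3:**
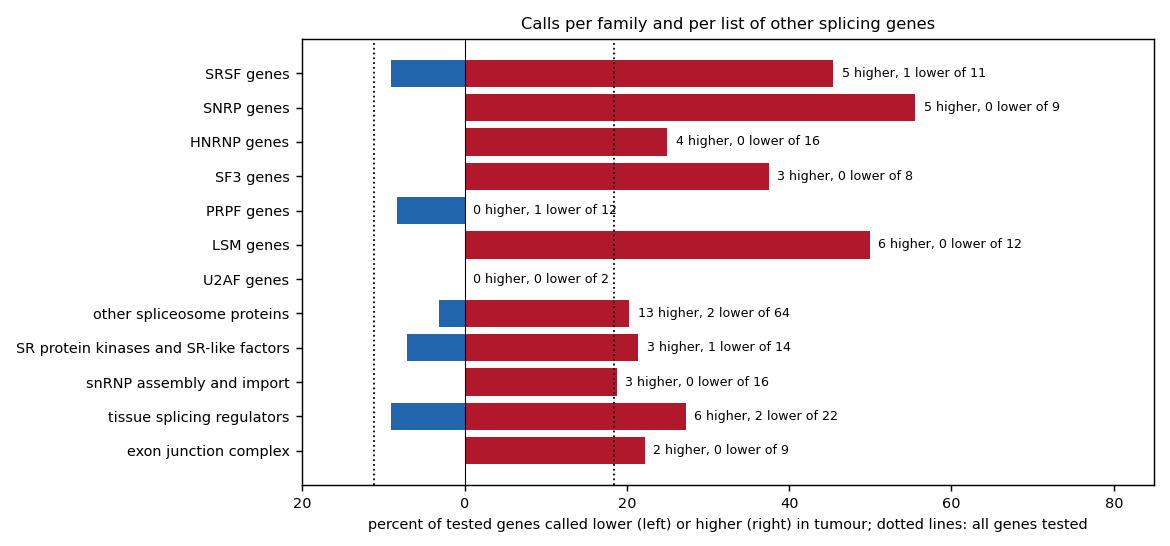
Percent of tested genes called lower (bars to the left) and higher (bars to the right) in tumour, for the 7 families and for 5 lists of other splicing genes, with the counts beside each bar; dotted lines mark all genes tested (18.4% higher, 11.1% lower). The SNRP, LSM, SRSF and SF3 bars end at 37.5% to 55.6%, the HNRNP bar at 25% and the 5 other lists between 18.8% and 27.3%. The bars for snRNP assembly and import (18.8%) and for other spliceosome proteins (20.3%) end close to the line for higher genes. PRPF had 0 rises of 12 genes and U2AF 0 of 2.

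Different probe sets of 1 gene were never called in opposite directions, but calls and signs could differ between them. Of 55 genes with several tested probe sets, 14 had all of them higher and 30 had none called, and 0 had calls in opposite directions. LSM3 is among the 14, but its dimmest probe set lay below log2 4 in all 11 glands and in 2 tumours. That probe set passed the filter through the tumours alone and is no further support. In 10 genes at least 1 probe set was higher and at least 1 was not. For 8 of these the brightest probe set, which stands for the gene here, was among those not called: HNRNPH3, HNRNPM, HNRNPR, LSM14A, PRPF3, PRPF6, SNRPC and SRSF2. These 8 were named after their values were seen. SRSF10 had 7 tested probe sets, 4 of them higher and all above 0, from 0.20 to 0.63. Probe sets that hit different transcript ends or isoforms cannot be separated with this annotation.

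**Figure D4:**
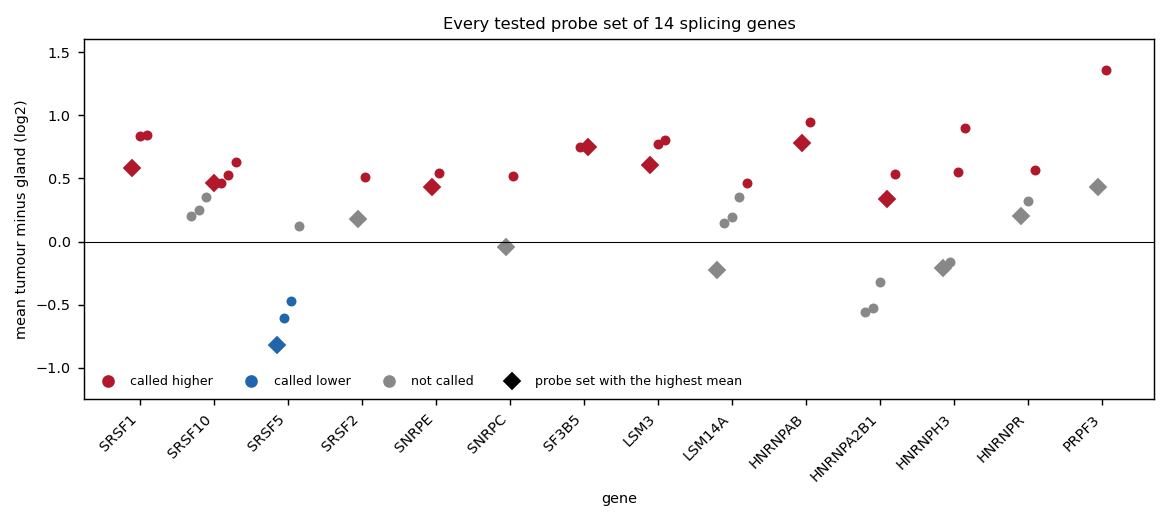
Mean difference between tumour and gland (log2, 11 dogs) for every tested probe set of 14 splicing genes; diamonds mark the probe set with the highest mean, and colours the call. All probe sets of SRSF1, SNRPE, SF3B5, LSM3 and HNRNPAB were higher, while those of HNRNPA2B1, HNRNPH3, LSM14A, SNRPC and SRSF5 lay on both sides of 0. The dimmest LSM3 probe set lay below log2 4 in all 11 glands and passed the filter through the tumours alone.

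Dogs differed in how far their splicing genes were shifted. The mean over the 70 genes was highest in dog 7, at 0.53 with 57 of 70 genes above 0, followed by dog 6 at 0.48. It was 0.05 in dog 13 and 0.00 in dog 5, where 29 of 70 genes lay above 0. The SNRP mean was above 0 in all 11 dogs, from 0.15 in dog 14 to 1.00 in dog 7, and was 0.39 in dog 5. The LSM and SRSF means were also above 0 in each dog, from 0.07 to 0.90 and from 0.03 to 0.59. The PRPF mean ran from -0.22 to 0.43 and was above 0 in 6 of 11 dogs. Dog 12, with the highest PRPF mean, was also the dog whose tumour held the lowest SNRPN and HNRNPUL2 values and the highest PRPF40B value. As a level, the mean of the 70 genes lay between 10.42 and 10.66 in the paired glands and between 10.57 and 11.11 in the paired tumours. Outside the pairs, the tumour of dog 1 had 10.86 and that of dog 9 had 10.58. The lone gland, from dog 8, had 10.81, above every paired gland.

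Across the 11 dogs the mean of the splicing genes and that of the mitosis genes had a Pearson r of 0.40 and a Spearman rho of 0.49, given as a description, since both come from the same arrays. Pearson r was 0.22 without dogs 6 and 14, the farthest from the median of the mitosis means. The mitosis difference was 0.17 in dog 14, whose splicing mean of 0.22 was close to that of dog 10 at 0.24, where the mitosis genes differed by 5.51. Dog 7, with the highest splicing mean, had a mitosis difference of 2.76. In dog 6 both were high, at 0.48 and 5.73, and in dog 5 both were low, at 0.00 and 1.66.

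**Figure D5:**
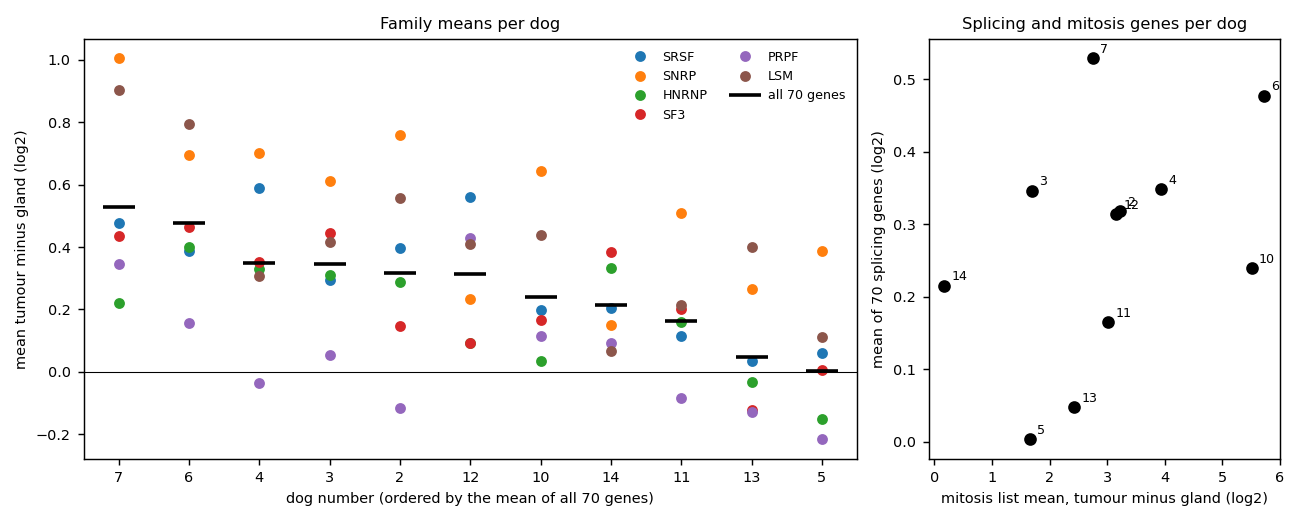
Left, mean difference between tumour and gland (log2) in each dog for the 6 families with at least 8 tested genes (coloured points) and for all 70 genes (bars). Right, the mean of the 70 splicing genes against the mean of the 20 mitosis genes per dog, numbered by dog; the points rise loosely together (Spearman rho 0.49), with dogs 14 and 10 at like splicing means and mitosis differences of 0.17 and 5.51.

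In the 5 dogs whose glands showed no skeletal muscle signal, the median difference of the splicing genes was 0.24, beside 0.07 for all genes. In the 6 dogs with that signal it was 0.22, beside 0.11. The 23 called genes had median differences of 0.68 and 0.64 in these sets, and SRSF5 had -0.75 and -0.87. Since the calls were made on these same 11 dogs, the direction in each set is no independent support. With 5 dogs limma called 1 of the 70 genes higher, SNRPA, and 1.22% of all genes. With a covariate for the muscle genes in all 11 dogs, 7 of the 23 remained, while 2.01% of all genes were higher. The median difference of the 23 was 0.71 without and 0.66 with this covariate, and the median SE over all genes was 0.20 and 0.30. SRSF5 lost its call as well (-0.68, adjusted p = 0.137), and so did PRPF40B (-0.73, adjusted p = 0.204). With a covariate for the adipocyte genes limma called 0 of 8885 genes in either direction, although 18 of the 70 splicing genes and 1037 of all genes had an unadjusted p under 0.05.

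The lists of other genes of the splicing pathway gave shares of rises from 18.8% to 27.3%. Over all genes 18.4% rose and 11.1% fell. The list shares were below those of the SNRP, LSM, SRSF and SF3 families (37.5% to 55.6%). They lay around that of HNRNP (25%) and above those of PRPF and U2AF (0%). These differences were not tested. Of 64 tested proteins of the spliceosome outside the 7 families 13 rose (20.3%) and 2 fell, with a median difference of 0.16. DDX39A, a helicase of mRNA export and splicing, rose by 1.35 ± 0.67 (adjusted p = 0.000597) in 11 dogs, and the U5 protein TXNL4A by 0.83 ± 0.57 (adjusted p = 0.00374) in 10. RBM5, a regulator of exon choice, was lower, at -0.62 ± 0.39 (adjusted p = 0.00394) in 10 dogs. Of 16 genes for the assembly and import of snRNPs 3 rose (18.8%, close to the 18.4% of all genes) and 0 fell, with a median of 0.31. PRMT5, the methyltransferase that modifies Sm proteins, rose by 0.89 ± 0.55 (adjusted p = 0.00264) in 11 dogs, and its cofactor WDR77 by 0.81 ± 0.61 (adjusted p = 0.00572) in 10.

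Of 14 genes for SR protein kinases and SR-like factors 3 rose (21.4%, beside 18.4% of all genes) and 1 fell, with a median of -0.15. TRA2A, an SR-like activator, rose by 1.29 ± 0.85 (adjusted p = 0.00286) in 11 dogs, and the kinase CLK4 was lower, at -0.64 ± 0.70 (adjusted p = 0.0296). Of 22 tested tissue splicing regulators 6 rose (27.3%) and 2 fell, with a median of 0.06. NOVA1, best known from neurons, was lower at -1.41 ± 1.14 (adjusted p = 0.00673), with 7 of 11 tumours below log2 4. The cold-inducible RNA-binding protein CIRBP was lower at -1.34 ± 0.61 (adjusted p = 0.000382) in 11 of 11 dogs, while SYNCRIP, an hnRNP by function, rose by 1.06 ± 0.50 (adjusted p = 0.000572). Of 9 genes of the exon junction complex and mRNA export 2 rose (22.2%): ALYREF by 0.67 ± 0.52 (adjusted p = 0.00681) and EIF4A3 by 0.40 ± 0.44 (adjusted p = 0.0432).

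Within the tumours, splicing genes were not called in relation to survival or tumour size. Survival after surgery ran from 1 to 9 months in 12 dogs and tumour size from 0.5 to 5 cm in 13. Limma's slopes per month gave 0 of 71 tested splicing genes at an adjusted p of 0.05 and 0 at an unadjusted p under 0.05, and 0 of 8751 genes in all (0%). For size, 0 of 71 splicing genes and 0 of 8817 genes (0%) passed. At an unadjusted p under 0.05 there were 8 splicing genes, or 11.3% beside 9.66% of all genes, and each of them was lower in larger tumours. Of the 71 slopes 52 were negative (73.2%, beside 52.8% of all genes). SF3B4 had the smallest p, with a slope of -0.52 ± 0.14 per cm (SE, adjusted p = 0.367).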

How the data were processed

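Per the labels' protocols, specimens were macrodissected and their total RNA was biotinylated for Affymetrix arrays, 1 array each. The authors deposited 1 normalized log2 value per probe set and array. The submitters' processing notes list Partek, GCRMA and RMA but neither a version nor a role for any of them. Gene names came from the platform annotation. The Entrez IDs of 164 of the 179 splicing probe sets matched RefSeq's gene table for UU_Cfam_GSD_1.0, with 0 symbols differing. A further 2 matching probe sets named several genes and were left out. No normalization was added.

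The 111 control probe sets were removed. Testing was limited to the 21553 probe sets above log2 4 in 6 or more paired arrays. The paired test used lmFit and eBayes (trend, 2-sided) of limma 3.58.1 under R 4.3.3, with the dog as a fixed block and Benjamini-Hochberg adjustment over all tested probe sets. A gene was represented by its brightest tested probe set, judged by the mean of all 25 arrays. Errors are SDs of the paired differences over 11 dogs unless marked SE. Slopes on survival and size were fitted in the tumours where 4 or more of the arrays used exceeded log2 4. The paired test was checked on simulated data, where it recovered 57.55% of changes of size 1 and 92.35% of those of size 2. Of its calls there 4.37% were false.

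The pairing comes from the labels, which give each array a dog. Deviations from the tissue means correlated within each of the 11 dogs, at 0.119 to 0.456, while different dogs gave a median of -0.064. The difference of the actin 3' and 5' probe sets, a sign of RNA quality, was -0.18 ± 0.38 in tumour against gland. The members and gene lists were chosen with earlier results of these data known. Genes were named by a rule: per family the 4 largest calls, the largest call in the opposite direction, the largest uncalled difference and calls shared by all dogs, and per list the 2 largest calls and the largest opposite one. LSM4, SNRPE, SRSF7 and other members outside this rule were named after their values were seen. The number of dogs limits the precision. Alternatives covered scaling, filters, the block, moderation, probe set choice, covariates and leaving out each dog.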

Additional observations from a re-analysis of the deposited data

How the results depend on the processing

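Over the 11 paired dogs, splicing genes higher in tumour numbered 23 and lower 2. Centring each array, a stricter filter and robust moderation gave 23 to 25 higher and 2 lower, with PRPF at 1 after centring. A second quantile normalization gave 19 higher, 5 lower and 2 HNRNP genes higher, and no filter gave 21 and 1. Without the dog as a block the counts were 20 higher, 1 lower and 1 HNRNP gene higher. The pairing in the text is that of the labels. With all 25 arrays and the dog as a random block (correlation 0.24), 28 were higher, with PRPF at 2 and U2AF at 1. The mean of all probe sets per gene gave 28, with PRPF at 1 and HNRNPA2B1 reversed at -0.11. The skeletal muscle covariate left 7 genes (SRSF 1, SNRP 2, HNRNP 1, SF3 1, LSM 2), 10 probe sets and 0 lower. The adipocyte covariate left 0 genes and 0 probe sets in every family, and raised the median SE over all genes from 0.20 to 0.59. With it HNRNPUL2 (-0.76), SF3A2 (0.22) and LSM1 (-0.54) turned sign, each without passing in the paired fit. The subset of 5 dogs without gland muscle signal, chosen after seeing the data, left 1 gene (SNRP 1, SRSF 0, HNRNP 0, SF3 0, LSM 0), 3 probe sets and 0 lower, with fewer dogs. The cause of these moves was not tested. Leaving out 1 dog at a time gave 20 to 24 genes higher, 1 to 3 lower and 43 to 55 probe sets. By family it gave SRSF 4 to 6, SNRP 5 to 6, HNRNP 2 to 4, SF3 3 to 4, PRPF 0 to 1, LSM 5 to 7 and U2AF 0 to 1. The count lower was 1 without dog 2, 4, 5, 6, 7, 10, 11 or 13, and 3 without dog 14. PRPF was 1 without dog 2 or 13. Of the 23 genes, 20 to 23 were kept when 1 dog was left out. The median difference ran from 0.16 under quantile normalization to 0.41 under the adipocyte covariate. Survival and size stayed at 0 calls when a dog was left out.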
